A study of Mus musculus with 3 samples.

Results

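The genes described here are cell division genes, 36 of the 32285 genes in the count tables, chosen by name from a list and all found by their symbols. By role they comprise 13 genes that copy DNA, 22 that act in mitosis, and Hmgb2, a chromatin protein gene that is also used outside division. Messenger RNA was counted in single cells of mouse brain as UMIs, 1 for each captured RNA molecule, in 1 library per condition. The naive library came from untreated WT C57BL6J mice, and the other 2 came from WT C57BL6J mice 24 h or 3 d after a TIA, a 5 min closure of the left middle cerebral artery with a filament. The treatment labels of those 2 libraries read post stroke. Each library pooled 3 mice, given in the study's methods as 10 to 12 weeks old, so animals cannot be told apart and no spread between animals can be given. Meninges and white matter had been dissected away and only live cells were sorted, which bears on which cells could be seen.

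The libraries held 37987228 UMIs in 4804 cell barcodes (naive), 12919691 in 1619 (24 h) and 48636436 in 5505 (3 d). Cells with at least 500 genes and at most 7% of UMIs from mitochondrial genes were kept, 4018, 1225 and 4781 in that order, with medians of 7750, 8123 and 7868 UMIs. Barcodes shared between libraries numbered 2 (naive and 24 h), 7 (naive and 3 d) and 2 (24 h and 3 d). Cells called doublets, that is 2 cells under 1 barcode, made up 3.04% of kept cells in the naive library, 0.490% at 24 h and 2.95% at 3 d. The 24 h library is therefore the smallest of the 3 and has the lowest share of called doublets.

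Clusters were named by defining markers and are called microglia-like, astrocyte-like and so on, because the names rest on RNA alone. The microglia-like, neuroblast-like, oligodendrocyte-like, endothelial-like and pericyte-like clusters held all 7 of their defining markers, and the progenitor-like cluster held all 7 of its own. The brain label therefore fits the markers of glia, vessels and young neurons, while no cluster could be named as mature neurons. The paper speaks of cortical tissue and the labels of brain, so which regions the progenitor-like and neuroblast-like cells came from is unclear. The 36 members and 2 wider lists of division genes were kept out of the genes that set the clusters. The progenitor-like cluster was nevertheless led by division genes, the members Top2a and Pclaf among them, so its high level of members may in part be how that cluster arose.

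A cell that divides first copies its DNA and then separates the copies. The MCM helicase opens the double helix, PCNA holds the polymerase on it, and histone genes are switched on to wrap the new DNA, after which cyclins, mitotic kinases, centromere proteins and spindle motors carry the chromosomes apart. In the adult mouse brain most dividing cells are progenitors of the subventricular zone and the hippocampus, whose daughters become neuroblasts, and oligodendrocyte precursors, whereas microglia and vessel cells divide rarely at rest and can enter the cycle after injury.

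Cells with at least 5 UMIs summed over the members were counted in each class, with exact Clopper-Pearson 95% intervals that, like all intervals here, cover counting error only. Of the classes compared, progenitor-like cells led in every library. The naive library had 173 of 186 such cells (93.0%, interval 88.3 to 96.2), the 24 h library 32 of 39 (82.1%, 66.5 to 92.5) and the 3 d library 157 of 169 (92.9%, 87.9 to 96.3). Neuroblast-like cells followed with 331 of 780 (42.4%), 61 of 110 (55.5%) and 200 of 373 (53.6%). Among microglia-like cells the counts were 208 of 1026 (20.3%, 17.9 to 22.9), 110 of 271 (40.6%, 34.7 to 46.7) and 322 of 1257 (25.6%, 23.2 to 28.1). The 24 h share in microglia-like cells thus lay above both other libraries, beyond counting error. The class joins 2 clusters whose mix differed, the smaller, led by chemokine and cytokine genes, making up 11.2%, 24.4% and 22.2% of it. Past the threshold were 31.3%, 65.2% and 41.6% of the smaller cluster and 18.9%, 32.7% and 21.1% of the larger, each highest at 24 h. Outside the classes compared, the unnamed cluster led by S100a8, F13a1 and Pf4 gave 41 of 60 (68.3%), 10 of 22 (45.5%) and 93 of 108 (86.1%), in cells of far greater depth, and the haemoglobin-led cluster gave 25 of 70 (35.7%), 2 of 9 (22.2%) and 15 of 61 (24.6%).

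The remaining classes compared were lower. Endothelial-like cells past the threshold numbered 9 of 287 (3.14%, 1.44 to 5.87), 23 of 229 (10.0%, 6.47 to 14.7) and 24 of 591 (4.06%, 2.62 to 5.98). Astrocyte-like cells gave 27 of 892 (3.03%), 28 of 239 (11.7%) and 39 of 1426 (2.74%), and pericyte-like cells gave 7 of 160 (4.38%), 17 of 182 (9.34%) and 8 of 328 (2.44%). The astrocyte-like class joins clusters whose mix differed, the deepest holding 336, 123 and 685 of its cells. Oligodendrocyte-like cells, whose mature form does not divide, gave 15 of 232 (6.47%), 11 of 72 (15.3%) and 17 of 250 (6.80%). Every one of these classes had its highest median depth at 24 h: microglia-like medians were 7848, 9443 and 7824 UMIs, endothelial-like 4643, 5690 and 4263, and oligodendrocyte-like 13417, 16151 and 12901. With each cell thinned to 2000 UMIs, which lowers every share, 0.198%, 0.752% and 0.401% of microglia-like cells were past the threshold, the 24 h share again being the highest, on 2 cells. Progenitor-like cells kept 83.9%, 53.9% and 79.9%. How much of the 24 h contrast goes with depth was not tested.

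The threshold of 5 UMIs separated progenitor-like cells well and the others poorly. Only 4 progenitor-like cells stood just outside it at 4 UMIs and 1 just inside it at 5, whereas 277 microglia-like cells had 4 UMIs and 195 had 5. Endothelial-like cells numbered 52 at 4 UMIs and 37 at 5. Past the threshold, the median cell held 218 member UMIs in the progenitor-like class, 9 in the neuroblast-like class, 6 in the microglia-like class and 5 in the endothelial-like class.

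**Figure D1:**
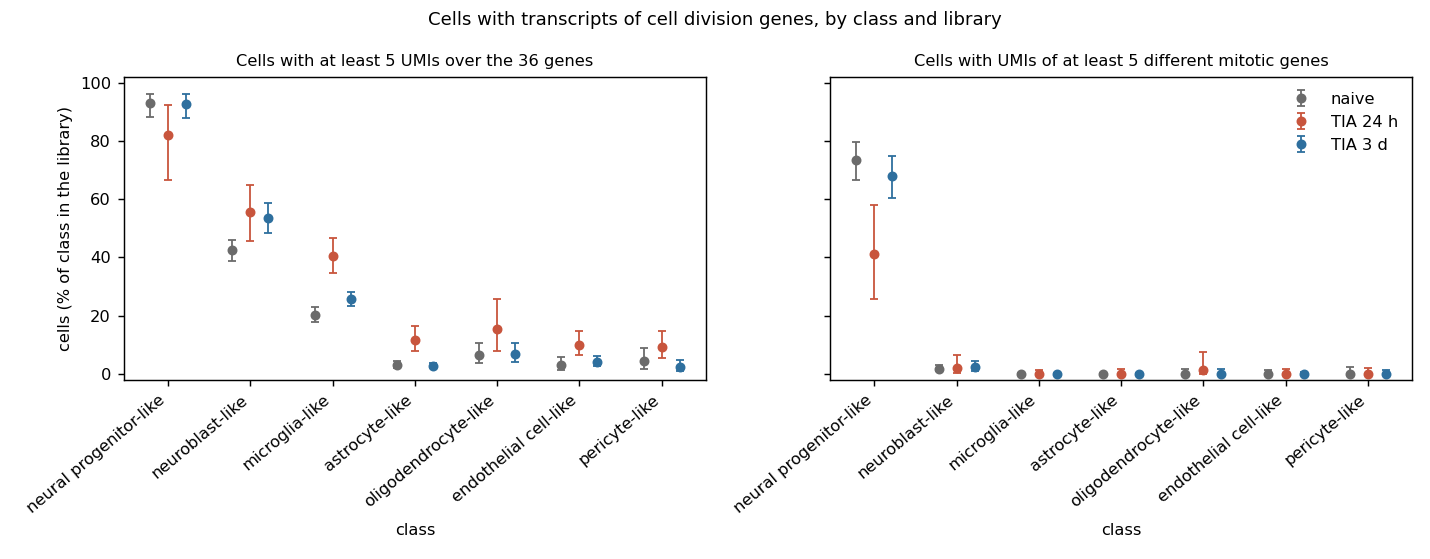
Share of cells in percent (vertical axis) for each class and library (naive, 24 h and 3 d), by at least 5 UMIs summed over the members and by UMIs of at least 5 different mitotic members, with exact 95% Clopper-Pearson intervals as error bars. The first measure gives 40.6% of microglia-like cells at 24 h, while the second gives 0 in every library.

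Which members those UMIs belonged to differed by class. In microglia-like cells past the threshold, Hmgb2 gave 41.8% of member UMIs and Pcna, which encodes the sliding clamp of DNA synthesis and is also used in DNA repair, 18.9%, while all 22 mitotic members together gave 6.17%. Of those 640 cells, 440 (68.8%) had no UMI of any mitotic member, and no cell had more than 4 different ones. Endothelial-like cells past the threshold drew 40.8% from Hmgb2 and never had more than 2 different mitotic members. In progenitor-like cells Hmgb2 gave 22.8%, replication members 44.6% and mitotic members 32.7%. A count without Hmgb2 left 7.41%, 21.4% and 8.51% of microglia-like cells and 0.697%, 1.75% and 1.18% of endothelial-like cells.

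Single members differed in how widely they were seen outside progenitor-like cells. Pcna had a UMI in 59.0% of oligodendrocyte-like cells (median depth 13417 UMIs over the libraries) and in 40.02% of microglia-like cells (7955 UMIs), so a Pcna UMI alone does not mark a dividing cell. Top2a, which untangles DNA before chromosomes part, had one in 1.44% of oligodendrocyte-like cells and in 1.10% of microglia-like cells, against 73.4% of progenitor-like cells. Hmgb2 behaved differently, with a UMI in 15.0% of oligodendrocyte-like cells and 59.2% of the shallower microglia-like cells. The part of free RNA in these shares was not tested. In the naive library there were 3.78 Hmgb2 UMIs for each Top2a UMI in progenitor-like cells and 143 in microglia-like cells.

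A stricter measure was added after these values were seen: UMIs of at least 5 different mitotic members in 1 cell. By this measure 137 of 186 progenitor-like cells (73.7%, 66.7 to 79.8) were in the cycle in the naive library, 16 of 39 (41.0%, 25.6 to 57.9) at 24 h and 115 of 169 (68.1%, 60.5 to 75.0) at 3 d. Neuroblast-like cells numbered 14 (1.80%), 2 (1.82%) and 9 (2.41%). The count in microglia-like cells was 0 of 1026, 0 of 271 and 0 of 1257, which allows shares of up to 0.292%, 1.11% and 0.239%. The limit for a count of 0 was taken as 3 cells here and below, which lies under the upper end of the exact intervals. Endothelial-like cells gave 0 of 287, 0 of 229 and 0 of 591, allowing up to 1.05%, 1.31% and 0.508%. These limits and those below are for cells that pass the measure, and a dividing cell of low depth could fall short of it.

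No dividing cell was seen in the other glial and mural classes either, apart from 1. Astrocyte-like cells gave 0 in each library (up to 0.336%, 1.26% and 0.210%), as did pericyte-like cells (up to 1.88%, 1.65% and 0.915%). In the oligodendrocyte-like cluster 1 cell of the 24 h library had 7 mitotic members, in 2117 UMIs with 9 microglial and 2 oligodendrocyte marker UMIs, so its class is uncertain. When only cells failing both limits were left out, a cluster of 47 cells, 45 of them naive, was led by Cdkn3, Cenpa and Ube2c. It held markers of oligodendrocytes and of neuroblasts, and no count of mitotic cells is given for it. With all cells thinned to 5000 UMIs, 63.3%, 39.5% and 55.5% of progenitor-like cells and 0 of 923, 256 and 1153 microglia-like cells passed. In the clusters named microglia-like and endothelial-like, division after the TIA was thus not detected by mitotic genes at either time.

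Over all kept cells, 326 of 10024 (3.25%) had at least 5 different mitotic members, made up of 168 (4.18%), 19 (1.55%) and 139 (2.91%) in the naive, 24 h and 3 d libraries. Of the 326 cells, 301 (92.3%) carried at least 10 UMIs of progenitor or neuroblast markers. Outside the classes compared, a haemoglobin-led cluster held 15, 0 and 11 of the mitotic cells, and the unnamed cluster led by S100a8, F13a1 and Pf4 held 2, 0 and 4. The 4 cells at 3 d had 834 to 1827 microglial marker UMIs, a median of 555 neutrophil marker UMIs and a median of 103944 UMIs in all. Whether each is 1 cell or several was not tested, so the mitotic UMIs cannot be assigned to a cell type. The share of mitotic cells within the neurogenic classes, progenitor-like and neuroblast-like cells counted as 1 group, was 151 of 966 (15.6%, 13.4 to 18.1), 18 of 149 (12.1%, 7.32 to 18.4) and 124 of 542 (22.9%, 19.4 to 26.7). The lower 24 h share seen within the progenitor-like cluster was thus within counting error of the naive share when the neuroblast-like cells were counted in. The 3 d share lay above the naive share, with intervals that do not overlap, but within progenitor-like cells it lay below (68.1% and 73.7%). The mix of the 2 classes also differed, with 186 progenitor-like to 780 neuroblast-like cells in the naive library and 169 to 373 at 3 d.

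Some mitotic cells of the progenitor-like and neuroblast-like clusters also held markers of other cells. At least 10 astrocyte marker UMIs were seen in 32, 3 and 40 mitotic progenitor-like cells. Over both clusters, 10 cells had at least 10 microglial marker UMIs, and all 10 also carried between 52 and 242 neuroblast marker UMIs, with 6 of them called doublets. Endothelial markers at that level were found in 6, which all held neural markers as well. In these cells the mitotic UMIs cannot be assigned to the second cell type. Called doublets were more frequent among cells past 5 UMIs in some classes and not in microglia-like cells, where they made up 0.625% against 0.627% of the others. In endothelial-like cells 16.1% of such cells were called doublets against 1.14% of the others, and 16.1% against 1.33% held at least 10 microglial marker UMIs. For astrocyte-like cells the doublet shares were 20.2% and 1.67%, for oligodendrocyte-like cells 25.6% and 5.09%, and for pericyte-like cells 6.25% and 3.29%.

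The lineage of the dividing progenitor-like cells was read from genes outside the members. Of the 268 mitotic cells of this cluster, 253 (94.4%) had a UMI of Dlx2, a transcription factor gene of inhibitory neuron precursors, or Dcx, a microtubule protein gene of migrating neuroblasts. The share was 93.4%, 93.8% and 95.7% in the 3 libraries. Sox11 was seen in 99.6%, whereas Eomes, which marks excitatory neuron precursors, was seen in 8.58% and Pdgfra, which marks oligodendrocyte precursors, in 5.22%. Dcx and Sox11 are neuroblast markers that this cluster held, so their shares may in part be how the cluster arose. Dlx2 by itself, which is on no marker list, was seen in 86.9%, 93.8% and 91.3%. The dividing cells of this cluster thus carried genes of the Dlx lineage in every library, which describes the cluster.

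Oligodendrocyte precursors were few. Of all mitotic cells, 45 held at least 10 UMIs of precursor markers, and all 45 held neural markers as well. Cells with at least 10 UMIs of precursor markers, at least 2 of them from Pdgfra, numbered 7, 4 and 4, and 1 of them, at 24 h, had 5 mitotic members together with neuroblast markers. Of the 32 progenitor-like cells under 5 member UMIs, 9 held at least 10 UMIs of those precursor markers. At resolution 1 a cluster named as oligodendrocyte precursors by their markers split off, with 18, 12 and 15 cells, and the progenitor-like cluster then held 167, 27 and 154. The genes leading the split-off cluster were neuronal, Reln and Neurod1 among them, so its name is doubtful.

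**Figure D2:**
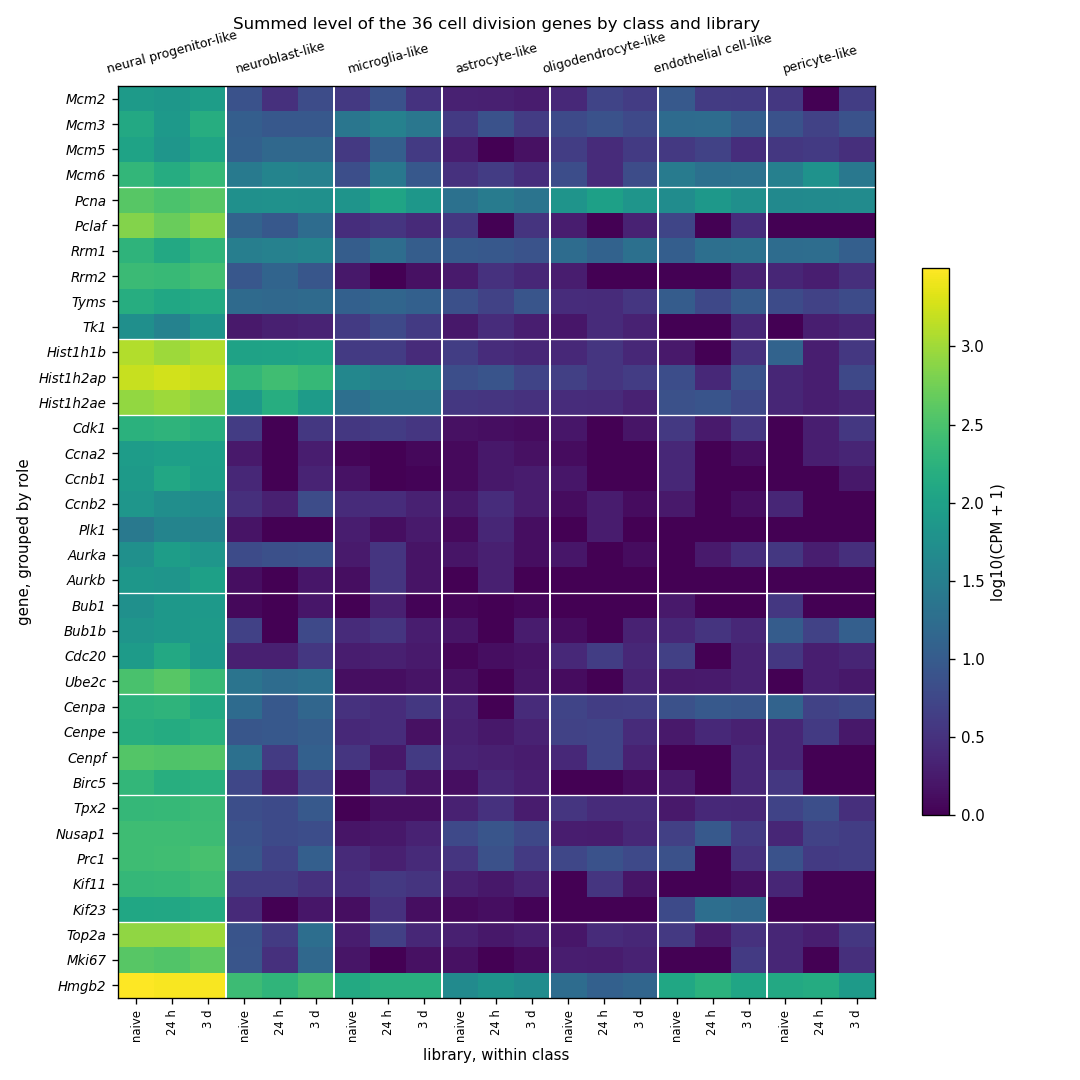
Heatmap of the summed level of each member (vertical axis, grouped by role) in each class and library (horizontal axis), with color giving log10 of CPM plus 1, CPM being UMIs per 1000000. No error bars are drawn.

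Levels were also compared as UMIs summed over a class and scaled to 1000000 UMIs (CPM), with no scaling for gene length. Summed over the members, progenitor-like cells held 13400, 12820 and 13370 CPM in the naive, 24 h and 3 d libraries, neuroblast-like cells 933, 975 and 1047, and microglia-like cells 340, 475 and 378. Endothelial-like cells held 301, 357 and 295, pericyte-like cells 307, 311 and 231, oligodendrocyte-like cells 146, 174 and 147, and astrocyte-like cells 122, 156 and 124. Among the classes compared, each of the 36 members was highest in progenitor-like cells, by 5.26 to 116 times the class next in order, with a median of 18.9 times. The smallest of these ratios belonged to Pcna and the largest to Aurkb, the kinase that corrects wrong attachments of chromosomes to the spindle. Counted with the haemoglobin-led cluster, where Aurkb stood at 39.33 CPM over the libraries against 81.75 in progenitor-like cells, that ratio would be far smaller. The haemoglobin-led cluster, which is left out of this order, differed between the naive and 3 d libraries. Ccnb2, a B cyclin, stood there at 19.9, 0 and 172.7 CPM, against 67.9, 51.9 and 49.2 in progenitor-like cells. Ube2c stood there at 129, 0 and 354 CPM, Birc5 at 52.2, 0 and 209.9, and Mki67 at 19.9, 0 and 450.4. At 3 d all 4 were thus higher there than in progenitor-like cells. The 24 h zeros rest on 9 cells, and each allows up to 74.93 CPM.

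In progenitor-like cells every member passed the filter of 30 UMIs summed over the compared libraries. None changed 2-fold in either direction at 24 h, when 3.28% of all genes tested were higher and 3.84% lower, or at 3 d, when the shares were 1.16% and 1.43%. The median log2 ratio to naive over the 36 members was -0.05 at 24 h against 0.02 over all genes, and 0.10 at 3 d against 0.06. Both comparisons use the same naive library, so their values stand side by side and lend each other no support.

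The 4 helicase members Mcm2, Mcm3, Mcm5 and Mcm6, subunits of the ring that unwinds DNA, summed to 519 CPM in naive progenitor-like cells, 357 at 24 h and 565 at 3 d. Mcm3 stood at 128, 75.4 and 150 CPM, a 24 h log2 ratio of -0.76 (-1.17 to -0.37). Mcm2 stood at 78.6, 69.2 and 86.9 CPM, Mcm5 at 108, 68.0 and 111, and Mcm6 at 205, 145 and 217, all lowest at 24 h. The clamp and nucleotide supply members summed to 1734, 1341 and 1791 CPM. Among them Pcna stood at 393, 320 and 389 CPM, and Pclaf, whose protein binds PCNA, at 709, 507 and 732. Rrm1, a subunit of the enzyme that makes deoxyribonucleotides, stood at 187, 130 and 195 CPM, and Rrm2, its partner, at 240, 229 and 275. All 10 of these replication members were lower at 24 h than in the naive library, 8 of them with an interval below 0, and 8 of 10 were higher at 3 d. No share over all genes is given for intervals, here or below, so such counts have no general rate beside them.

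Of the 3 replication-dependent histone members, 1 moved with the rest of the replication group at 24 h. Most mRNAs of this kind end without the poly(A) tail that these libraries capture, so part of them is missed. They summed to 3743, 3796 and 3633 CPM in progenitor-like cells. Hist1h1b, a linker histone gene, stood at 1259, 981 and 1252 CPM, Hist1h2ap at 1620, 1835 and 1596, and Hist1h2ae at 865, 980 and 785, the latter pair encoding core histone H2A. At 24 h Hist1h1b was thus lower and both H2A genes were higher than in the naive library, with log2 ratios of -0.36, 0.18 and 0.18.

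Of the mitotic members, 14 of 22 were above naive at 24 h, 4 with an interval above 0 and 1 with an interval below, and the median log2 ratio was 0.07 against 0.02 over all genes. At 3 d 14 of 22 were again above naive, 10 with an interval above 0 and 4 with an interval below. Cyclins and mitotic kinases summed to 552, 652 and 593 CPM. Ccnb1, the cyclin whose rise takes a cell into mitosis, stood at 79.2, 126 and 91.9 CPM, a 24 h log2 ratio of 0.67 (0.33 to 1.00). Aurka, the kinase that matures spindle poles, stood at 55.2, 89.0 and 68.2 CPM. Cdk1, the partner of cyclin B, was nearly level at 170, 189 and 157 CPM, and Plk1, a kinase of mitotic entry, stood at 24.6, 37.1 and 36.3.

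The spindle checkpoint and anaphase members gave 512, 656 and 458 CPM. Cdc20, which turns on the ligase that starts anaphase, stood at 83.4, 128.5 and 75.8 CPM, and Ube2c, the enzyme that works with that ligase, at 307, 383 and 228. All 4 members of this role were above naive at 24 h, and Ube2c fell below it at 3 d with a log2 ratio of -0.43 (-0.57 to -0.29). The centromere and passenger members gave 899, 825 and 811 CPM, with Cenpf at 364, 339 and 353, Birc5 at 204, 156 and 164, and Cenpa, the histone that marks the centromere, at 178, 189 and 130. The spindle and cytokinesis members gave 1062, 1087 and 1190 CPM, 4 of the 5 with a 3 d interval above 0, among them Prc1, which bundles the midzone microtubules, at 255, 267 and 299.5.

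The chromosome structure members carried much of the sum. Top2a stood at 834, 834 and 967 CPM, and Mki67, whose protein coats mitotic chromosomes and is widely used to mark cycling cells, at 394, 350 and 426. Hmgb2 stood at 3154, 2926 and 2935 CPM. None of these 3 differed from naive by more than 0.214 on the log2 scale. The members given no values in these paragraphs (Tyms, Tk1, Ccna2, Aurkb, Bub1, Bub1b, Cenpe, Tpx2, Nusap1, Kif11 and Kif23) and Ccnb2 also stayed within 2-fold at both times.

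The 24 h sums rest on few cells. There, 5 of 39 progenitor-like cells held 51.4% of replication UMIs and 55.3% of mitotic UMIs, whereas the top 5 cells held 10.6% and 16.7% in the naive library and 11.1% and 17.5% at 3 d. For Cdc20 the top 5 cells gave 79.8% of the UMIs at 24 h, and 1 cell alone had 30 of 104. The Poisson intervals treat UMIs as independent and are therefore too narrow for these 24 h values. Counted by cells, Mcm3 had a UMI in 63.4%, 41.0% and 71.0% of progenitor-like cells and Cdc20 in 36.02%, 41.0% and 40.2%.

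Replication and mitotic members each tended to vary with their own group among progenitor-like cells, the helicase members only weakly. Over 357 cells thinned to 5000 UMIs, which share 3 libraries, each of the 13 replication members followed the sum of the other replication members more closely than the mitotic sum, and each of the 22 mitotic members did the reverse. The groups were still linked, the median rho of mitotic members with the replication sum being 0.30 and that of replication members with the mitotic sum 0.22. This is a description by Spearman's rho across cells. Hist1h1b had a rho of 0.82 with replication and 0.60 with mitosis, Mki67 0.51 and 0.81, and Cdc20 0.02 and 0.55. The other histone members also followed both sums, Hist1h2ap with 0.805 and 0.659 and Hist1h2ae with 0.78 and 0.663. Hmgb2, which belongs to neither group, gave 0.52 and 0.77. The helicase members followed the replication sum weakly. Mcm2 hardly followed either sum (0.03 and -0.18), with a UMI in 25.8% of the cells. Mcm6 gave 0.163 and -0.178, Mcm3 0.2 and -0.151, and Mcm5 0.225 and -0.031. Cells with at least 5 replication members and fewer than 5 mitotic ones, a profile of DNA copying, made up 14.5%, 23.1% and 18.9% of progenitor-like cells.

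Neuroblast-like cells had 23 members past the filter in the 24 h comparison and 25 at 3 d. At 24 h 4 members were lower, when 9.91% of all genes were, and 0 were higher, when 0.942% of genes were. These 4 passed the filter through the naive library alone, where the class held 5652228 UMIs against 978511 at 24 h. Such a filter admits genes mainly where naive is high, so no fall is read from this count. Cenpf, a kinetochore gene, went from 18.8 CPM to 3.07 (3 UMIs) and stood at 10.96 at 3 d. Mcm2 stood at 6.72, 2.04 (2 UMIs) and 5.48 CPM in the 3 libraries, Mki67 at 7.25, 2.04 (2 UMIs) and 14.0, and Top2a at 7.08, 3.07 (3 UMIs) and 17.4. The interval excluded 0 for Cenpf alone of the 4 (log2 ratio -2.61, -4.91 to -1.03), and 19 of its 106 naive UMIs came from 1 cell.

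At 3 d Top2a was 2-fold higher in neuroblast-like cells, at 17.4 CPM and a log2 ratio of 1.30 (0.69 to 1.92), and was the single member called, when 0.538% of genes were higher and 2.15% lower. Its 57 UMIs came from 21 of 373 cells. Mki67 was next at 14.0 CPM (0.95). Hist1h2ae, in contrast, stood at 77.5, 148 and 83.2 CPM, highest at 24 h.

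Microglia-like cells had 13 members past the filter at 24 h, and 3 of these were at least 2-fold higher, when 2.45% of all genes were, while 0 were lower, when 3.61% were. All 3 encode helicase subunits. Mcm6 stood at 5.89 CPM in the naive library, 24.4 at 24 h and 8.27 at 3 d, a 24 h log2 ratio of 2.05 (1.51 to 2.60). Mcm5 stood at 2.77, 10.6 and 2.88 CPM (1.94, 1.11 to 2.77), and Mcm2 at 2.77, 6.71 and 2.25 (1.28, 0.33 to 2.21). The fourth, Mcm3, stood at 22.5, 33.9 and 23.1 CPM and did not reach 2-fold. All 4 were therefore highest at 24 h, and at 3 d the interval of each ratio to naive included 0. Mcm5 and Mcm2 each had 24 UMIs in the naive library and reached the filter only with their 24 h UMIs, 30 and 19. No rise is thus read from the calls of Mcm5 and Mcm2, whereas Mcm6 had 51 naive UMIs.

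None of the other replication members reached 2-fold in microglia-like cells, and 7 of the 11 that passed the filter, helicase members included, had an interval above 0. The share of all genes with such an interval is not given, so this count has no general rate beside it. Pcna stood at 64.6, 108 and 70.4 CPM and Rrm1 at 9.70, 16.6 and 9.71, whereas Hist1h2ap stood at 40.2, 33.6 and 35.5, and Rrm2 gave 6, 0 and 5 UMIs. The median log2 ratio at 24 h was 0.59 over the 13 members against 0.05 over all genes. Hmgb2 was higher at both times, with 132, 162 and 162 CPM. In oligodendrocyte-like cells, taken as a class outside the cycle, Mcm6 stood at 5.77, 1.66 and 5.46 CPM and Mcm5 at 3.34, 1.66 and 2.87, each with 2 UMIs at 24 h. Mcm2 stood there at 1.52, 4.16 and 3.16 CPM and Mcm3 at 5.16, 6.66 and 4.88, both highest at 24 h on 5 and 8 UMIs. In pericyte-like cells Mcm6 stood at 32.3, 60.1 and 24.6 CPM, a 24 h log2 ratio of 0.90 (0.19 to 1.64), so a higher Mcm6 level at 24 h was not confined to microglia-like cells.

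Mitotic members gave few UMIs in microglia-like cells, 192, 90 and 251 over all 22, or 22.2, 31.8 and 22.6 CPM. Only Cdk1 of the 22 passed the filter at 24 h, at 2.65 and 3.18 CPM. Mki67 gave 5, 0 and 5 UMIs, or 0.577, 0 and 0.450 CPM. Top2a gave 8, 10 and 16 UMIs, or 0.923, 3.53 and 1.44 CPM. Aurkb stood at 0.346, 2.47 and 0.539 CPM and Kif23 at 0.346, 2.12 and 0.360, on 7 and 6 UMIs at 24 h. These 3 were highest at 24 h on counts too low for the filter. Other mitotic members below the filter went either way, such as Birc5 at 0.115, 1.77 and 0.539 CPM and Cenpf at 2.42, 0.706 and 2.97. At 3 d 18 members passed and none was called, when 1.73% of genes were higher and 0.943% lower. Hmgb2, at a log2 ratio of 0.30 (0.19 to 0.40), and Hist1h2ae were the members whose 3 d interval lay above 0.

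Replication genes came together in some microglia-like cells at 24 h. UMIs of at least 5 different replication members were seen in 3 of 1026 cells (0.292%, 0.0603 to 0.852) in the naive library, 12 of 271 (4.43%, 2.31 to 7.61) at 24 h and 11 of 1257 (0.875%, 0.438 to 1.56) at 3 d. None of these 26 cells held neural markers or was called a doublet, and they carried a median of 277 microglial marker UMIs. They were deep cells, with medians of 17079, 19428 and 17951 UMIs against 7843, 9335 and 7810 in the others. The markers cannot tell 1 microglia-like cell from 2 under 1 barcode, and this was not tested. After thinning to 5000 UMIs, cells with at least 3 replication members made up 3.79% (2.66 to 5.23), 7.42% (4.53 to 11.4) and 4.34% (3.24 to 5.68), with intervals that overlapped. This count differs from the first in both depth and number of members, so the 2 cannot be set against each other.

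Most of those 24 h cells belonged to 1 of the 2 microglia-like clusters, the one led by Cxcl10, Ccl12, Tnf and Ccl2, which are chemokine and cytokine genes of activated microglia. That cluster held 8 of the 12 cells, from 66 cells in the 24 h library. Mcm6 stood at 11.96, 50.9 and 10.4 CPM in it and at 5.09, 12.7 and 7.59 in the larger cluster. Mcm5 stood at 4.98, 26.6 and 4.09 CPM against 2.48, 3.56 and 2.49, and Mcm2 at 2.99, 17.4 and 3.72 against 2.74, 2.03 and 1.78. The Mcm2 values rest on 3, 15 and 10 UMIs in the chemokine-rich cluster and on 21, 4 and 15 in the other, and the difference between the clusters was not tested.

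**Figure D3:**
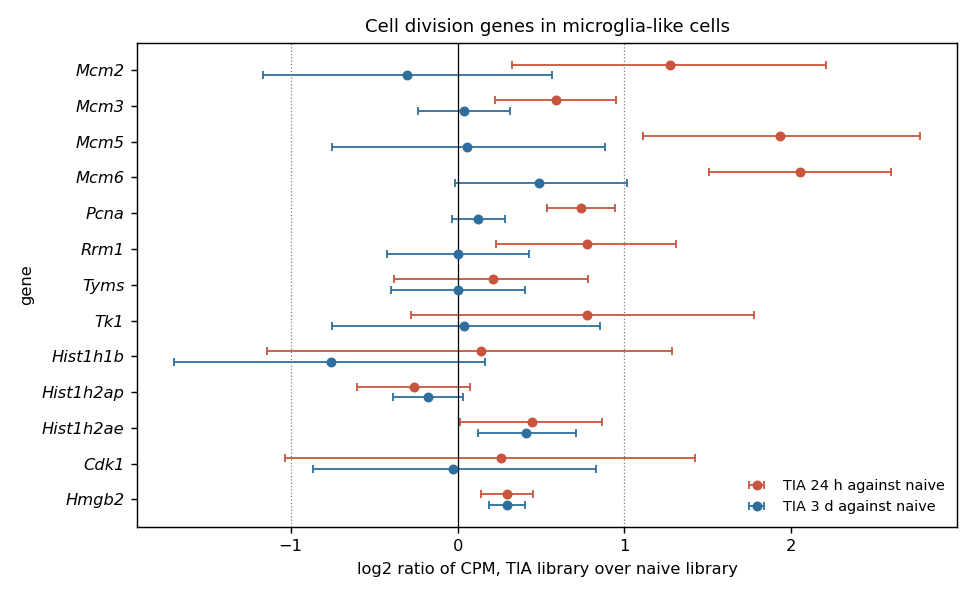
Log2 ratio of CPM to the naive library (horizontal axis) at 24 h and 3 d for the 13 members (vertical axis) with at least 30 UMIs in the 24 h comparison in microglia-like cells, with exact 95% conditional binomial intervals as error bars. Dotted lines mark 2-fold.

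In endothelial-like cells 5 members passed the filter at 24 h with none called, when 2.48% of all genes were higher and 3.58% lower, and 8 passed at 3 d with 1 higher, when 3.53% of all genes were. That member was Kif23, a kinesin of the spindle midzone needed for the daughters to separate, at 5.02, 17.2 and 14.6 CPM. Its 3 d log2 ratio was 1.54 (0.37 to 2.94), from 40 UMIs spread over 36 of 591 cells with at most 2 in a cell. The 24 h comparison, with 7 and 22 UMIs, fell just short of the filter. At 3 d Kif23 passed it only through the 3 d library, where it was high, so no rise is read from the call. In progenitor-like cells many members are high together, whereas here the other spindle and cytokinesis members Tpx2, Nusap1, Prc1 and Kif11 gave 4, 8, 6 and 1 UMIs at 3 d. Hmgb2 stood at 121, 168 and 111 CPM and Pcna at 48.8, 72.5 and 55.1, both highest at 24 h. Mki67 gave 0, 0 and 8 UMIs. The mitotic members summed to 39.5, 42.9 and 47.1 CPM.

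Astrocyte-like cells had 10 members past the filter at 24 h, with 2 higher, when 2.91% of all genes were. These were Mcm3 (2.93, 6.67 and 3.19 CPM) and Prc1 (2.48, 6.32 and 2.98), and 6 of the 18 Prc1 UMIs at 24 h came from 1 cell. With 26 and 22 naive UMIs, Mcm3 and Prc1 reached the filter only with their 24 h UMIs, so no rise is read from these calls. The mix of astrocyte-like clusters also differed by library. At 3 d 13 members passed and 1 was lower, when 1.02% of genes were, namely Hist1h1b at 3.38 and 1.49 CPM. Hist1h1b reached the filter through its 30 naive UMIs, against 21 at 3 d, so no fall is read from it. In oligodendrocyte-like cells 3 and 6 members passed at 24 h and 3 d with none called, when 3.67% and 4.62% of all genes were higher and 6.81% and 1.19% lower. In pericyte-like cells 3 and 3 passed with none called, when 2.62% and 6.14% were higher and 2.98% and 1.06% lower. So few members make a count of 0 uninformative. The other members of these classes had too few UMIs for a ratio.

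Genes outside the members were followed in 2 lists. Of 88 other division genes, 86 were highest in progenitor-like cells among the classes compared, the exceptions being Anln in oligodendrocyte-like and Pttg1 in pericyte-like cells. The 5 with most UMIs, Stmn1, Tubb5, H2afz, Hist1h1e and Hist1h4d, stood at 3330, 2146, 2397, 987 and 1041 CPM in progenitor-like cells. All 88 passed the filter in progenitor-like cells and none was called at either time. In microglia-like cells 10 of 41 were higher at 24 h and 0 lower, against 2.45% and 3.61% of all genes, and at 3 d 2 of 44 were higher, against 1.73%. The 10 included Mcm7, the helicase subunit next to the members, at 8.43 and 23.3 CPM, Cdt1, which loads the helicase, at 5.31 and 12.01, Gmnn, which restrains Cdt1, at 3.69 and 10.2, and Gins2 and Prim1, which act at the fork, at 4.04 and 8.83 and at 2.65 and 7.77. Ect2, Tacc3, Cks1b and Atad2 were higher as well. How many of the 10 reached the filter only with their 24 h UMIs is not given. In neuroblast-like cells 1 of 43 was higher and 4 lower at 24 h, against 0.942% and 9.91% of all genes, and 3 of 56 were higher at 3 d, against 0.538%. In endothelial-like cells 1 of 20 was higher and 1 lower at 24 h, against 2.48% and 3.58%, and 2 of 23 were higher at 3 d, against 3.53%. The 24 h counts in astrocyte-like cells were 2 higher and 3 lower of 33, against 2.91% and 6.40%. Oligodendrocyte-like cells had 4 higher and 2 lower of 22, against 3.67% and 6.81%, and pericyte-like cells 0 and 2 of 11, against 2.62% and 2.98%.

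The other list held 16 genes of cycle entry and arrest, of which 4 were highest in progenitor-like and 5 in microglia-like cells. Its 5 genes with most UMIs were Btg2, Ccnd2, Btg1, Ccnd3 and Rb1. Ccnd2, a D cyclin of neural progenitors, stood at 3752 CPM in progenitor-like and 2520 in neuroblast-like cells, against 11.1 in microglia-like cells. Btg2, which slows cycle entry, stood at 1704 CPM in microglia-like cells, and Btg1 at 758. Rb1, which holds E2F factors in check, was highest in astrocyte-like cells at 268 CPM. Ccnd3, another D cyclin, stood at 296, 749 and 874 CPM in microglia-like cells of the naive, 24 h and 3 d libraries, and Cdkn1a, an inhibitor of cyclin-dependent kinases, at 15.2, 39.9 and 18.3 CPM, with 20 of its 113 UMIs at 24 h in 1 cell. At 24 h Ccnd2 and Cdkn1c were lower in these cells. Of the 16 genes, all past the filter, 2 were higher and 2 lower there, against 2.45% and 3.61% of all genes. So short a list gives no result about entry or arrest genes as a group. In progenitor-like cells Ccnd3 was the single gene of the 16 past 2-fold, at 24 h, when 3.28% of all genes were higher. It stood at 23.4, 50.7 and 41.9 CPM, with 56.1% of its 24 h UMIs in 5 cells.

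Within a class, genes were ranked by their CPM ratio between cells past 5 member UMIs and the other cells. In progenitor-like cells the 10 highest of 10776 genes were Dlx1, Lockd, Dlx2, Cks2, Cdca8, Nudt4, Knl1, Cenpk, Hist1h1a and Ckap2, with ratios of 42.4 to 120 that each rest on 1 UMI in the 32 other cells. Neuroblast-like cells gave Npy, 6030498E09Rik, Gmnn, E2f1, Uhrf1, Vim, Slc25a13, Knstrn, Efna5 and Tead2 (5.14 to 17.1), of which Gmnn, E2f1 and Uhrf1 are on the division list. Microglia-like cells gave Igkc, Mmp12, Lgals3, Lilr4b, Adam8, Lilrb4a, Aff3, Pld5, Dusp2 and Fn1 (4.61 to 83.6), with none on a division list. Igkc had UMIs in 4 cells and none below the threshold, so its ratio is a floor. The microglia-like cells past the threshold were also deeper, with a median of 10207 UMIs against 7475 in the others.

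In the vessel and other glial classes the same ranking gave mixed genes, several of them microglial. Among the highest in endothelial-like cells were Ccl4, Ackr1, Arhgap22, Slc15a3, Slc24a3, Cd86, Gm38505, Cacnb2 and Rbfox1 (18.4 to 55.3), each in at most 9 of 56 cells. Astrocyte-like cells gave, among others, Lsmem1, Il21r, Tlr7, Tnfrsf12a, Rubcnl, Vav1, Lgals9, Atf3 and Anxa3 (12.4 to 22.6), and oligodendrocyte-like cells gave C5ar1, Ifitm10, Ccnd2, Rgs20, Gm2629, Nrg1, Rbfox1, Il1a, Hpgd and Plek (10.1 to 41.98). Pericyte-like cells gave Sox11, Laptm5, Ly6e, Fyb, Runx1, Siglech, Apbb1ip, Csmd3, Ctss and Gm10790 (5.87 to 8.80), each in at most 5 of 32 cells. Siglech, Ctss and Tlr7 are expressed by microglia. The haemoglobin-led cluster gave Cdca3, Car1, Cks1b, Hist1h2ab, Hemgn, Hist2h2bb, Tspo2, Hist1h3f, Hist1h2bn and Lockd (66.1 to 96.3), and the unnamed cluster led by S100a8, F13a1 and Pf4 gave S100a8, Lcn2, S100a9, Ngp, Camp, Retnlg, Ttr, S100a6, D7Ertd443e and Tspan18 (16.1 to 239). The ratios of Car1, Hist1h2ab, Ngp, Camp and Ttr are floors, with 0 UMIs in the other cells.

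Since replication and mitotic members each followed their own group more closely among progenitor-like cells, their promoters were read for motifs. RefSeq windows on build GRCm38.p6, from 250 bases before to 50 bases after each gene's start, were found for 30 of the 36 members in 31 windows, Prc1 having 2 that overlap. None was found for Hist1h1b, Hist1h2ap, Hist1h2ae, Ccna2, Aurkb and Tpx2. The motifs were searched on both strands. The CHR, TTTGAA or TTCGAA, and CCAAT are known from genes of mitosis, and the E2F set, GGCGGGAA, TTTGGCGC, TTTCGCGC or TTTCCCGC, from genes of DNA copying. GGCGGGAA and the reverse complement of TTTCCCGC overlap each other in sequence. Of 20 windows of mitotic members, 16 (80.0%) held a CHR, 18 (90.0%) a CCAAT and 16 (80.0%) both, where 19.2%, 37.4% and 7.53% of all 32851 promoter windows did. Of 10 windows of replication members, 5 (50%) held an E2F motif, where 3.49% of all windows and 1 mitotic window (Cdk1) did, 8 (80.0%) held a CCAAT and 1 (Mcm2) a CHR. The 5 belonged to Mcm3, Mcm5, Mcm6, Pclaf and Rrm1. The window of Hmgb2 held CHR and CCAAT and no E2F motif. TATAAA was in none of the mitotic or replication windows and in 13.6% of all. The sequences below are the windows of the 2 members with most UMIs of each group that hold its motifs, in capitals the E2F motifs of Pclaf (chr9:65890073-65890372, plus strand) and Rrm1 (chr7:102441445-102441744, plus strand), and the CHR and CCAAT of Top2a (chr11:99024140-99024439, minus strand) and Mki67 (chr7:135716330-135716629, minus strand). A match describes the letters and shows no binding.
Pclaf: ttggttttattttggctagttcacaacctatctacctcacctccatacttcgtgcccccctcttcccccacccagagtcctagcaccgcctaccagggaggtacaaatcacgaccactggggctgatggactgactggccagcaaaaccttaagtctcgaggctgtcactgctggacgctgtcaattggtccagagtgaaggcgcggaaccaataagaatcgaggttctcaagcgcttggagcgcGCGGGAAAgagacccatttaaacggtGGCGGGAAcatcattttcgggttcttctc
Rrm1: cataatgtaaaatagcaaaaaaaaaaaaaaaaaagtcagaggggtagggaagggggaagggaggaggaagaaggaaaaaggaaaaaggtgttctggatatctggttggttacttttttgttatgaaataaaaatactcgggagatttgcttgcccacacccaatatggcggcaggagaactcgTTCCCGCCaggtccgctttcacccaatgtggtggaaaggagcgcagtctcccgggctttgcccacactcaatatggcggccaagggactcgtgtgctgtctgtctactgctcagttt
Top2a: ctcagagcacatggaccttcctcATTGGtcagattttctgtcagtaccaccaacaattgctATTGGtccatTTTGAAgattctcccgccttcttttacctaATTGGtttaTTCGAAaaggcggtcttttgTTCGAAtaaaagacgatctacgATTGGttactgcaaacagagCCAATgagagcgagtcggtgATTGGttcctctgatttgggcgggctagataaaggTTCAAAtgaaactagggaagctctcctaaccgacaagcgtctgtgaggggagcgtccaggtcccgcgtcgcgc
Mki67: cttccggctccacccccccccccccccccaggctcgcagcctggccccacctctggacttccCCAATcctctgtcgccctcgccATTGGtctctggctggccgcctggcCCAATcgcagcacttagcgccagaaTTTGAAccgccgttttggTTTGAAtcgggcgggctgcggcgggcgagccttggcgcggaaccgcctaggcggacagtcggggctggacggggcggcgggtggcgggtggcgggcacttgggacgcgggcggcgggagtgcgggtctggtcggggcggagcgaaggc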

How the data were processed

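The deposited matrices hold UMI counts per gene and cell, made by the authors with Cell Ranger (3.1.0 in the processing notes, 7.1.0 in the matrix headers) on mm10. All 3 libraries were clustered together with Seurat 5.3.0 in R 4.3.3: log-normalization, 2000 variable genes less the 102 on the division lists, UMIs and mitochondrial percent regressed, 20 components, resolution 0.5. Clusters were named by 22 marker lists, the progenitor-like one by at least 5 of 7 markers, a rule set after the clusters were seen. Scrublet, run through scanpy 1.11.5, marked doublets, which were kept. Sums, exact intervals (scipy 1.17.1) and ratios used Python 3.11.15, and the share intervals and 2-fold calls were checked on counts drawn with known answers. With 1 library per condition no test was run: a gene was called at 2-fold with at least 30 UMIs over both sums. Named with values are the 10 members of most UMIs, those called, and 1 or more of each of 8 roles, and outside them the 10 genes of highest ratio per class and the 5 of most UMIs per list. Other genes named, such as those of lineage, and single cells were chosen after their values were seen. The members and lists were chosen with earlier results of these data known. A ratio against 0 counts used 3 counts. Alternatives were 10 UMIs, 5 different members, no Hmgb2, thinning, a looser cell filter, no doublets, all variable genes, resolution 1, 100 UMIs, 1.5-fold and median-ratio scaling.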

Additional observations from a re-analysis of the deposited data

Results flagged for a closer look

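At 24 h Mcm2 had a log2 ratio to naive of -1.72 in neuroblast-like cells (2 UMIs at 24 h, interval -4.82 to 0.23, which includes 0) and of 1.28 in microglia-like cells, where the larger of the 2 clusters gave -0.43. In neuroblast-like cells Mcm2 passed the filter only through its naive UMIs, so no contrast is read from these values. The difference was not tested.

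Cells in the cycle were also found among those that the quality limits left out. At least 5 different mitotic members were seen in 12 of 786 left-out cells of the naive library, 2 of 394 at 24 h and 7 of 724 at 3 d, all of them over 7% mitochondrial UMIs. At least 10 neuroblast marker UMIs were held by 8 of the 12 naive cells, 0 of the 2 cells at 24 h and 3 of the 7 at 3 d.

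A haemoglobin-led cluster outside the classes compared held 15 cells with at least 5 mitotic members in the naive library, 0 at 24 h and 11 at 3 d. The 11 cells had medians of 4142 erythroid marker UMIs, 523 member UMIs and 21 mitotic members. The 15 naive cells had a median of 30 member UMIs and mixed markers, with at least 10 microglial marker UMIs in 14 and at least 10 oligodendrocyte marker UMIs in 15. The part of free RNA or mixed cells in the naive count was not tested.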

How the results depend on the processing

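No called value changed sign, though the order of the endothelial-like shares did change, with 24 h no longer the highest under 10 UMIs or 5 different members. Leaving out doublets, using all variable genes or scaling by the median ratio kept the results of this paragraph within their limits. Shares of the other classes and of the haemoglobin-led cluster were not rerun. Shares are given for the naive, 24 h and 3 d libraries in turn. In microglia-like cells they moved from 20.3%, 40.6% and 25.6% to 1.66%, 10.3% and 4.22% with 10 UMIs, to 3.51%, 12.2% and 5.33% with 5 different members, to 7.41%, 21.4% and 8.51% without Hmgb2, to 0.198%, 0.752% and 0.401% when thinned to 2000 UMIs, and to 0% in each with 5 different mitotic members, a measure chosen after seeing the data. In endothelial-like cells they moved from 3.14%, 10.0% and 4.06% to 0%, 0% and 0.169%, to 0.697%, 0.437% and 0.846%, to 0.697%, 1.75% and 1.18%, to 0%, 0.452% and 0.180%, and to 0% in each, in the same order of settings. Progenitor-like shares of 93.0%, 82.1% and 92.9% moved to 83.9%, 53.9% and 79.9% when thinned, to 73.7%, 41.0% and 68.1% by mitotic members, to 98.8%, 100% and 99.4% at resolution 1, and to 83.4% (naive) and 77.3% (3 d) when only cells failing both limits were left out. At 1.5-fold, 4 members were higher and 3 lower at 24 h in progenitor-like cells, where none was at 2-fold, and in microglia-like cells 7 in place of 3 were higher at 24 h and 1 lower at 3 d. With at least 100 UMIs, 1 in place of 3 was higher in microglia-like cells at 24 h. No share over all genes is given at 1.5-fold or 100 UMIs, so these counts cannot be set against a general rate. Stricter settings count fewer cells or members by construction, and the cause of the moves with cluster resolution and cell filter was not tested. Depth limits all counts outside the progenitor-like cells, 1 pool of 3 mice stands for each condition, and the 24 h library is the smallest.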

Other observations

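Cdkn1a, the inhibitor gene on the list of cycle entry and arrest, differed between the libraries in some classes. Oligodendrocyte-like cells gave 1 Cdkn1a UMI in the naive library, 888 at 24 h and 109 at 3 d, or 0.304, 739 and 31.3 CPM. Astrocyte-like cells stood at 1.35, 107 and 8.94 CPM and endothelial-like cells at 248, 585 and 322 CPM. At 24 h 68 of 72 oligodendrocyte-like cells had a Cdkn1a UMI. Over the libraries together pericyte-like cells stood at 6.43 CPM, neuroblast-like cells at 4.94 and progenitor-like cells at 42.3. These values were chosen after they were seen, and any link to division was not tested.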
